A study of Mus musculus with 10 samples.

Results

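The 10 genes described here encode the MYC network of transcription factors, namely the MYC paralogues Myc, Mycn and Mycl, their partner Max, the MAX-binding repressors Mxd1, Mxd3, Mxd4, Mxi1 and Mnt, and the MAX-like factor Mlx. They were chosen by gene symbol, and all 10 were found among the 15686 genes of the stage matrix deposited by the authors and among the 55487 genes of the count tables. Nuclear RNA was sequenced at 5 stages of the differentiation of HM-1 mouse ES cells to blood in serum, with 2 libraries per stage. The stages were undifferentiated ES cells grown with LIF (ES), FLK1+ hemangioblast cells (HB) taken from embryoid bodies after 3 days, and 3 populations sorted after a further 2.5 days of blast culture with VEGF and IL-6. The latter were the hemogenic endothelium before (HE1; KIT+, TIE2+, CD41-) and after (HE2; KIT+, TIE2+, CD41+) the gain of CD41, and hematopoietic progenitors (HP; KIT+, TIE2-, CD41+). All stages came from the same ES cell line, and no genotype or drug treatment distinguished them. The study describes its expression replicates as biologically independent, while the labels do not say whether the 2 libraries of a stage came from separate differentiations, and p-values measure the spread between these libraries.

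MYC proteins bind DNA as dimers with MAX at the sequence CACGTG, the E-box, and activate genes of ribosome production, nucleotide synthesis and cell growth. MXD proteins and MNT compete for MAX, bind the same sequence and bring the SIN3 corepressor, so the balance of both groups sets the output of shared target genes. MLX is a second partner of MXD1, MXD4 and MNT and joins the network to the glucose-sensing factors MLXIP and MLXIPL. Pluripotent cells need MYC activity for self-renewal, and Myc and Mycn act redundantly in blood stem cells.

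Because the E-box is where both arms of the network meet, the promoters of the members were searched for it in the RefSeq promoter table (GRCm38.p6), which holds the 250 bases before and the 50 bases after each start. Of the 10 members, 9 had an entry there, with 11 promoters in all, and 4 members held CACGTG, which reads the same on both strands. The GC content of the 11 member promoters ran from 55% to 76.7%, against a median of 52.7% over all promoters. CACGTG was in 36.4% of the member promoters and in 7.15% of all 32851 promoters. Those 4 windows are printed 5′ to 3′ on the strand of the gene, with the E-box in capitals. The window of Mycn is shown as well because it held TTTGGCGC, an E2F-type motif searched on both strands, 2 times. Of all promoters 2 held it at least 2 times (0.00609%), that of Mycn among them, and 0.514% held it at least once. As the window was picked for this pair, the rarity of the pair is no test. The 2 motifs did not overlap in these windows, and a match describes the letters only.
Max, chr12:76962219-76962278, minus strand: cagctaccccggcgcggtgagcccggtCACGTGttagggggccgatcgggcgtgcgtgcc
Mnt, chr11:74830774-74830833, plus strand: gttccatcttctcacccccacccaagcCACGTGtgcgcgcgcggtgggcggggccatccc
Mlx, chr11:101087223-101087282, plus strand: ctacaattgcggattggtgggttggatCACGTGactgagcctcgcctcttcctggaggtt
Mxd4, chr5:34187897-34187956, minus strand: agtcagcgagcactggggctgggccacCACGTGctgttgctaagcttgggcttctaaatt
Mycn, chr12:12941970-12942046, minus strand: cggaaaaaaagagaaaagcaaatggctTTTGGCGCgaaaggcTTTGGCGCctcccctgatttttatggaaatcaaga

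The E-box of Max lay closest to the RefSeq start, with its first base at -3, followed by Mlx at -40, Mnt at -123 and Mxd4 at -219. The members with an E-box thus included Max and Mnt, for which no difference between stages passed the test, and Mxd4, which had the largest rise of the network from ES to HP. In a list of 57 genes commonly held to be MYC targets, 15 of the 52 genes with a promoter entry held CACGTG (28.8%), against 8.09% of all genes in the table.

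Counts per library lay between 24920434 and 58782055. Levels are given as CPM, counts per 1000000 counts of the library after scaling by TMM, and a floor of 3 counts equals 0.0510 to 0.120 CPM, which covers counting error only. The lowest count of any member in any library was 35, and 6 of the 10 members reached at least 9 CPM, the level the study took as expressed, in every library. Mxd3 stayed under that level in every library (at most 7.89 CPM), Mxd1 and Mxd4 in both ES libraries and Mycl in all libraries from HE1 on. All 10 passed the filter on low counts, together with 22596 genes in all. Pou5f1 reached 549 and 520 CPM at the ES stage, and Kdr, which encodes FLK1, 957 and 1284 CPM at HB. Kdr was also at 1265 and 718 CPM in HE1 and at 926 and 630 CPM in HE2. The endothelial gene Cdh5 reached 1431 and 798 CPM at HE1. Runx1 ranged from 295 to 523 CPM in HE2 and HP, against 52.4 and 58.6 CPM in HE1 and 73.8 and 84.7 CPM in HB. Transcripts of sort antigens were also present in populations sorted as negative for them. Itga2b, which encodes CD41, was at 227 and 127 CPM in HE1 and 400 and 367 CPM in HP. Tek, which encodes TIE2, was at 61.5 and 64.2 CPM in HP and 285 and 159 CPM in HE2. HE1 library 2 stood apart, because 5 ES markers (Pou5f1, Nanog, Zfp42, Esrrb and Sox2) summed to 67.0 CPM in it and to 6.31 CPM in HE1 library 1, against 1.40 to 6.05 CPM in HE2 and HP, 74.5 and 98.8 CPM in HB and 1920 and 1998 CPM in ES. None of the 5 was at 0 in any library. The HE2 libraries differed in their markers too, with 6 endothelial markers (Cdh5, Pecam1, Tek, Kdr, Sox17 and Emcn) summing to 2594 CPM in library 1 and 1551 CPM in library 2, and 6 hematopoietic markers (Itga2b, Runx1, Spi1, Gfi1b, Ptprc and Myb) to 995 and 1365 CPM. For comparison, the endothelial sums were 4115 and 2385 CPM in HE1 and 755 and 813 CPM in HP, the hematopoietic sums were 311 and 199 CPM in HE1 and 1394 and 1192 CPM in HP, and no marker was at 0 in these stages. The correlation between libraries of a stage, taken across genes, which are not independent replicates, was lowest in HE1 (r = 0.967) and highest in ES (r = 0.994). In bulk samples such as these, fewer cells of a type and less RNA per cell cannot be told apart.

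Myc, the founding paralogue, peaked in the hemangioblast. It lies on the plus strand of chr15:61985391-61990374 (GRCm38, as are all gene positions here). Its level was 30.4 and 31.5 CPM at the ES stage, 128 and 159 CPM at HB, 51.6 and 38.2 CPM at HE1, 52.3 and 90.9 CPM at HE2 and 77.6 and 67.8 CPM at HP. Both HB libraries were above every other library and both ES libraries below, and HE2 library 2 was higher than both HP libraries while HE2 library 1 was lower. Myc rose 4.63-fold from ES to HB (log2 fold change 2.21 ± 0.25 (SE), edgeR quasi-likelihood test, adjusted p = 8.24e-05). It fell by 1.67 ± 0.25 on the log2 scale from HB to HE1 (edgeR adjusted p = 0.000837). The later increase did not pass the test, with log2 differences of 0.67 from HE1 to HE2 (adjusted p = 0.0855) and 0.70 from HE1 to HP (adjusted p = 0.0620). Both passed without the filter on low counts (adjusted p = 0.00378 and 0.00201) and both depended on single libraries. The former was 1.02 without HE2 library 1 (adjusted p = 0.00995), 0.22 without HE2 library 2 (0.606) and 0.47 without HE1 library 2 (0.369). The latter was 0.93 without HE1 library 1 (adjusted p = 0.0435) and 0.50 without HE1 library 2 (0.308), and it passed without either HE2 library (0.0170 and 0.0175). HP was still 2.35-fold above ES (adjusted p = 0.00189).

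Mycn, the paralogue best known from neural tissue and early embryos, was lower at the end of the course than at its start. The gene lies on the minus strand of chr12:12936093-12941914. Its level was 171 and 164 CPM at the ES stage, 145 and 139 CPM at HB, 125 and 112 CPM at HE1, 114 and 152 CPM at HE2 and 105 and 81.6 CPM at HP. Both ES libraries were highest and both HP libraries lowest, and HE2 library 2 lay above both HB libraries. No step between consecutive stages passed the test, the log2 differences being -0.24, -0.26, 0.17 and -0.51 in order (edgeR adjusted p of 0.310, 0.269, 0.492 and 0.380). With only the 4 libraries compared, the step from ES to HB passed (-0.22, edgeR adjusted p = 0.0402). Over the whole course Mycn fell 1.79-fold from ES to HP (log2 fold change -0.84 ± 0.17 (SE), adjusted p = 0.00227), and this held under every alternative, with log2 fold changes from -1.04 to -0.67.

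Mycl, the paralogue found in lung cancer, fell at the step from HB to the endothelium. It lies on the plus strand of chr4:122995652-123002485. Its level was 24.1 and 22.9 CPM at the ES stage, 36.5 and 31.6 CPM at HB, 2.44 and 5.32 CPM at HE1, 1.10 and 1.11 CPM at HE2 and 2.28 and 1.84 CPM at HP. The ES and HB libraries were thus far above all 6 later libraries, and within HE1 the higher level was in library 2, the library with ES transcripts. From HB to HE1 Mycl fell 8.70-fold (log2 fold change -3.12 ± 0.32 (SE), edgeR adjusted p = 8.75e-05), and without HE1 library 2 the log2 fold change was -3.80 (adjusted p = 4.75e-05). A further fall of 1.82 on the log2 scale to HE2 passed the test (adjusted p = 0.0121), but not without HE1 library 2 (-1.14, adjusted p = 0.0522) nor without HE2 library 2 (-1.83, adjusted p = 0.0837), nor with only the 4 libraries compared (-1.81, adjusted p = 0.0854). The part of the ES transcripts in this step was not tested. The increase from ES to HB, 0.53 on the log2 scale, did not pass (adjusted p = 0.170). It passed with limma-voom (adjusted p = 0.0370) and with only the 4 libraries compared (0.55, edgeR adjusted p = 0.00244). The log2 difference was 0.53 when either HE1 library was left out. From HE1 to HP the log2 difference of -0.92 did not pass with edgeR (adjusted p = 0.0599). It passed with DESeq2 (-0.93, adjusted p = 0.0304) and in edgeR without the filter on low counts (-0.90, adjusted p = 0.0175). Without HE1 library 2 it was -0.23.

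**Figure D1:**
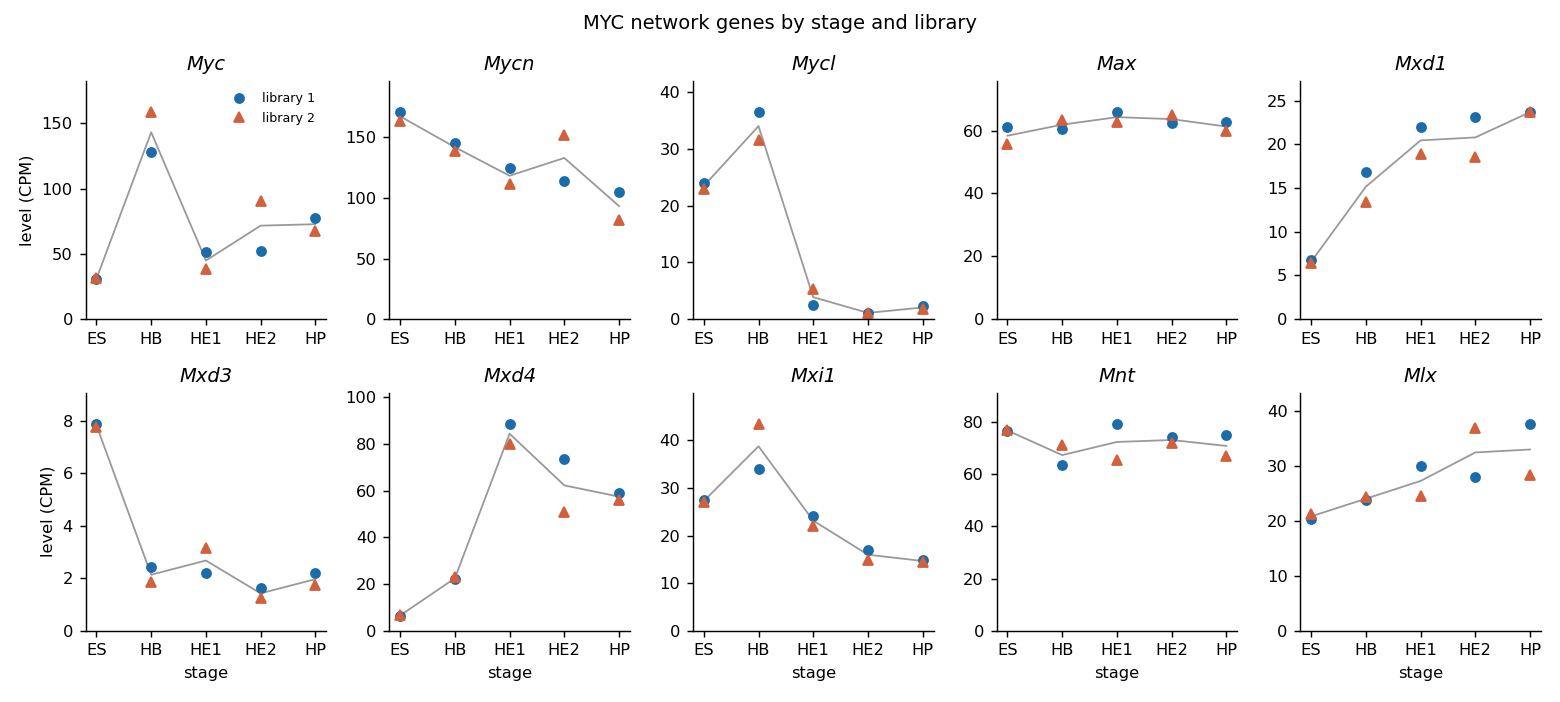
Level of each of the 10 genes (CPM, vertical axis, starting at 0) at the 5 stages (horizontal axis). Circles are library 1, triangles library 2 and the line joins the stage means; Myc peaks in HB, Mycl drops to 5.32 CPM or less from HE1 on, Mxd4 rises to a peak in HE1, and Max stays between 55.6 and 65.9 CPM.

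To compare the paralogues with each other, levels were divided by the annotated exon length (RPKM, CPM per kilobase of exon). In ES, Mycn made up 75.2% and 74.3% of the summed RPKM of the 3 paralogues, with 16.2% and 17.3% from Myc and 8.65% and 8.46% from Mycl. In HB, Myc took the larger part with 46.9% and 53.9%, and Mycn held 44.0% and 38.9%. Per length, Mycn thus led in ES, while in HB Myc was ahead in both libraries. In CPM, without division by length, the order in HB library 1 was the reverse, with 145 CPM of Mycn against 128 CPM of Myc.

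In HE1 the share of Mycn was back at 65.9% and 68.8%, and it was 64.0% and 57.8% in HE2. In HP both were close to each other, with 52.3% and 49.4% from Mycn and 46.8% and 49.7% from Myc, so the order of the paralogues per length differed between the HP libraries. In CPM Mycn was ahead in both, with 105 against 77.6 CPM and 81.6 against 67.8 CPM. The share of Mycl was 8.13% in HB, 1.86% ± 1.14 (SD, n = 2) in HE1, 0.423% ± 0.110 in HE2 and 0.918% ± 0.0116 in HP. The ratio of Mycn to Myc per length was 4.47 ± 0.24 at the ES stage, 0.83 ± 0.15 at HB, 2.21 ± 0.30 at HE1, 1.59 ± 0.30 at HE2 and 1.05 ± 0.088 at HP (SD, n = 2).

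The sum of the paralogues was highest in HB. The summed RPKM of the paralogues was 69.0 and 67.0 in ES and 100 and 108 in HB, where Mycn stood at 43.1 and Myc at 52.7 RPKM, against 50.8 and 11.4 RPKM in ES. It was 57.5 and 49.3 at HE1, 54.2 and 79.8 at HE2 and 61.0 and 50.2 at HP, so that the HB libraries were above all others and the HE2 libraries lay on either side of those of ES. These shares and sums are a description, with no test.

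**Figure D2:**
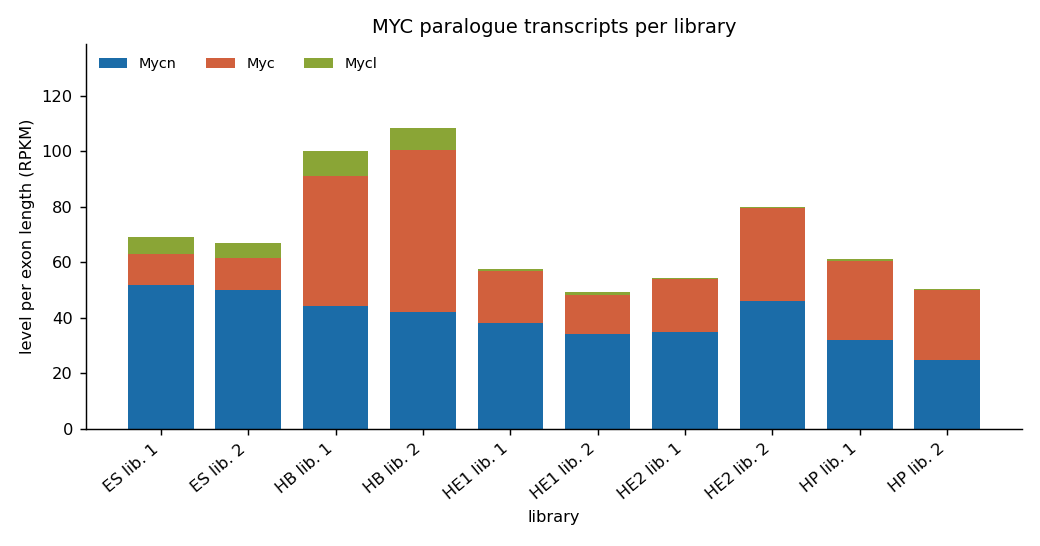
Level per exon length (RPKM, vertical axis) of Mycn, Myc and Mycl stacked for each of the 10 libraries (horizontal axis). The stack is highest in the HB libraries, 100 and 108 RPKM, where Myc is the larger block, and Mycl is nearly absent from HE1 on.

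Max, the obligate partner of the MYC proteins, kept nearly the same level throughout. It lies on the minus strand of chr12:76937269-76962201. Its level ran from 55.6 CPM in ES library 2 to 65.9 CPM in HE1 library 1, neighbouring stages overlapped, and the test over all stages gave an adjusted p of 0.839 (edgeR). The log2 difference from ES to HP was 0.07 ± 0.13 (SE). Mlx (chr11:101087277-101092207, plus strand) rose over the whole course, from 20.4 and 21.3 CPM in ES through 23.8 and 24.3 CPM in HB, 30.0 and 24.5 CPM in HE1 and 27.9 and 37.0 CPM in HE2 to 37.7 and 28.3 CPM in HP. The difference of HP from ES was 1.59-fold (adjusted p = 0.0164) and no consecutive step passed. It did not pass without HP library 1 (adjusted p = 0.130), ES library 1 (0.0987) or ES library 2 (0.0690). Of the exon bases of Mlx, 19.3% are shared with Psmc3ip on the opposite strand, and the counting used strand.

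Mnt, the broadly expressed repressor that is not part of the MXD family, showed no difference that passed the test either. Its gene is on the plus strand of chr11:74830920-74845725, and its level lay between 63.4 CPM in HB library 1 and 79.3 CPM in HE1 library 1. Both HB libraries were below both ES libraries, by 0.19 on the log2 scale (adjusted p = 0.331), and each later stage overlapped its neighbour. The test over all stages gave an adjusted p of 0.779 (edgeR).

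The MXD genes moved in different directions. Mxd4, a repressor linked to differentiating cells, lies on the minus strand of chr5:34173883-34187720. It stood at 6.24 and 6.83 CPM at the ES stage, 22.1 and 22.8 CPM at HB, 88.6 and 80.1 CPM at HE1, 73.5 and 50.9 CPM at HE2 and 58.9 and 55.9 CPM at HP. Each of the first 3 stages was separated from the next with no overlap, HE1 was highest, and HE2 and HP overlapped. Mxd4 rose 3.44-fold from ES to HB (edgeR adjusted p = 4.43e-05) and 3.75-fold from HB to HE1 (adjusted p = 6.04e-05). HP remained 8.79-fold above ES (log2 fold change 3.14 ± 0.19 (SE), adjusted p = 8.81e-07), the largest upward change among the members in that comparison. It fell 1.47-fold from HE1 to HP (adjusted p = 0.0422), a call that was lost without HE1 library 2 (adjusted p = 0.0789), without either HP library (0.134 and 0.129) and in all in 8 of the 10 fits that left out a library, as well as with only the 4 libraries compared (0.0797) and with a replicate block (0.0572).

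Mxd3, the family member expressed in proliferating cells, went the other way. It lies on the minus strand of chr13:55325168-55329823, and its level was 7.89 and 7.77 CPM in ES against 2.41 and 1.86 CPM in HB, 2.19 and 3.17 CPM in HE1, 1.61 and 1.24 CPM in HE2, and 2.19 and 1.75 CPM in HP. Both ES libraries were above all 8 others, which overlapped in part. Mxd3 fell 3.67-fold from ES to HB (log2 fold change -1.87 ± 0.34 (SE), edgeR adjusted p = 0.00157), and no later step passed the test. Within HE1 the higher level was again in library 2.

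Mxd1, the founding MXD gene and a mark of maturing cells, rose early and stayed up. The gene is on the minus strand of chr6:86647042-86669161. Its level was 6.76 and 6.37 CPM in ES, 16.9 and 13.4 CPM in HB, 22.0 and 18.9 CPM in HE1, 23.1 and 18.5 CPM in HE2, and 23.7 CPM in both HP libraries. Mxd1 rose 2.30-fold from ES to HB (edgeR adjusted p = 0.000766), the step from HB to HE1 was 0.43 on the log2 scale and did not pass (adjusted p = 0.110), and HP was 3.60-fold above ES (adjusted p = 3.04e-05). All HE1, HE2 and HP libraries were above both HB libraries, which were above both ES libraries.

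Mxi1 (chr19:53310518-53375810, plus strand), which encodes the repressor MXI1 and is also called Mxd2, was highest in HB. Its level was 27.4 and 27.1 CPM at the ES stage, 34.0 and 43.5 CPM at HB, 24.2 and 22.1 CPM at HE1, 17.1 and 14.9 CPM at HE2 and 14.8 and 14.5 CPM at HP, and no pair of consecutive stages overlapped. From HE1 to HE2 the log2 difference of -0.53 did not pass with edgeR (adjusted p = 0.0624). That step passed with DESeq2 (adjusted p = 0.0309) and in edgeR with total counts in place of TMM (adjusted p = 0.0358). Mxi1 rose 1.42-fold from ES to HB (edgeR adjusted p = 0.0344) and fell 1.68-fold to HE1 (adjusted p = 0.00838). Both calls were lost without HB library 2 (adjusted p = 0.284 and 0.0980), and that of the rise also without either ES library (0.148 and 0.152), with a replicate block (0.0578) and with no filter (0.0789). From HE1 to HP it fell 1.58-fold (adjusted p = 0.0195; 0.0849 and 0.0646 without HP library 1 and 2, and 0.0877 with only the 4 libraries compared), and from ES to HP 1.86-fold (adjusted p = 0.00142), which passed under every alternative.

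Per exon length, these moves changed the make-up of the 4 MXD transcripts. In ES, Mxi1 (44.4%) and Mxd3 (36.8%) made up most of their summed RPKM, with 10.3% from Mxd1 and 8.56% from Mxd4. From HE1 on Mxd4 was the most abundant, with 57.3% ± 0.97 in HE1, 55.2% ± 3.1 in HE2 and 51.7% ± 0.30 in HP (SD, n = 2). Mxd3 was at 6.34% in HP and Mxd1 at 25.6%. Mnt alone exceeded the MXD genes together in ES, where it held 64.8% of the RPKM of the 5 repressors, and its share was lowest in HE1 at 47.3%. These shares depended on the division by length. In summed CPM, Mxi1 held 56.5% and Mxd3 16.3% of the MXD genes in ES, with 13.6% each from Mxd1 and Mxd4, while Mxd4 was again the most abundant from HE1 on (64.6% in HE1, 61.6% in HE2 and 58.7% in HP). The share of Mnt among the repressors in CPM was 61.4% in ES, 46.2% at HB, 35.6% at HE1, 42.4% at HE2 and 42.0% at HP.

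The summed RPKM of the 5 repressors was also set against that of Max. The mean ratio was 1.58 ± 0.11 at the ES stage, 1.51 ± 0.049 at HB, 1.84 ± 0.11 at HE1, 1.64 ± 0.22 at HE2 and 1.67 ± 0.047 at HP (SD, n = 2). Both HE1 libraries were above those of ES, HB and HP, and the HE2 libraries spanned most of the range. In CPM the ratio was higher in HB than in ES, 2.35 against 2.14, the reverse of the order per length, and it was 3.15 at HE1, 2.73 at HE2 and 2.75 at HP.

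The ratio of the paralogues to the 5 repressors varied more. It was 2.70 and 2.62 in ES, highest in HB with 4.06 and 3.99, and lowest in HE1 with 1.63 and 1.60. In HE2 the libraries differed widely, with 1.74 in library 1, which had more of the endothelial markers, and 2.97 in library 2, which had more of the hematopoietic markers, and the part of these markers was not tested. In HB and HE1 the libraries were close to each other, and in HP they gave 2.06 and 1.84. The HB libraries were thus above and the HE1 libraries below all others on this ratio of RPKM sums, for which no test was made. Computed from CPM the ratio was 1.78 at ES, 2.19 at HB, 0.82 at HE1, 1.22 at HE2 and 0.995 at HP, with the same highest and lowest stage but with the repressors above the paralogues in HE1 and level with them in HP.

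**Figure D3:**
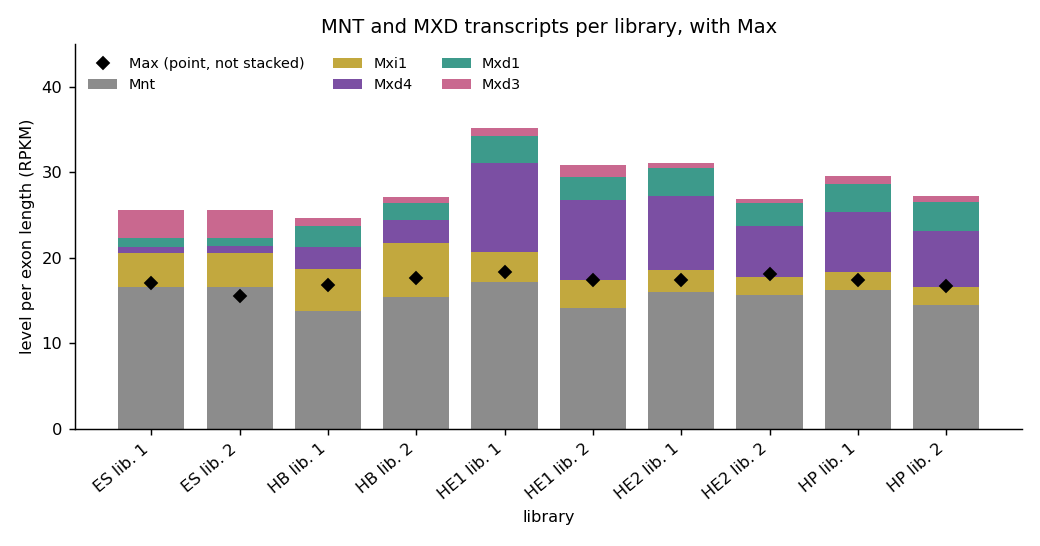
Level per exon length (RPKM, vertical axis) of Mnt, Mxi1, Mxd4, Mxd1 and Mxd3 stacked for each of the 10 libraries (horizontal axis), with Max as a diamond that is not part of the stack. Mxd4 is a thin block in ES and the largest MXD block from HE1 on, while Mnt and Max keep their height.

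Counted over the network, 5 of the 10 members differed between ES and HB, 4 of them higher (Myc, Mxd1, Mxd4 and Mxi1) and Mxd3 lower. Over all tested genes the share called was 40.4% (17.8% higher and 22.6% lower). From HB to HE1, 4 members were called, Mxd4 higher and Myc, Mycl and Mxi1 lower, against 32.3% of all genes (17.5% higher and 14.8% lower), and the same 4 were called without HE1 library 2.

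Later steps called fewer. From HE1 to HE2 only Mycl was called, against 13.2% of all genes (6.12% higher and 7.12% lower), and none was without HE1 library 2. From HE2 to HP no member and no gene at all was called by edgeR with all 10 libraries (0%). At an unadjusted p under 0.05 there were 2 members, Mycn lower and Mycl higher, while 670 genes were higher and 1113 lower. DESeq2 called 468 genes and limma-voom 66 in that comparison, and edgeR called 846 without the filter on low counts, 54 with only the 4 libraries compared, 640 without HE2 library 2, and 58 and 60 without HE1 library 1 and 2. No member was called in any of these fits.

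Between HE1 and HP, Mxd4 and Mxi1 were called as lower (24.9% of all genes were called, 11.0% as higher and 13.9% as lower), and only Mxi1 without HE1 library 2. Across the whole course, from ES to HP, 8 members were called, with Myc, Mxd1, Mxd4 and Mlx higher and Mycn, Mycl, Mxd3 and Mxi1 lower, against 51.6% of all genes (24.1% higher and 27.5% lower). The test over all stages called the same number, 8 members, against 66.7% of all genes. Members were therefore called at a rate near the background in the comparisons of consecutive stages.

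**Figure D4:**
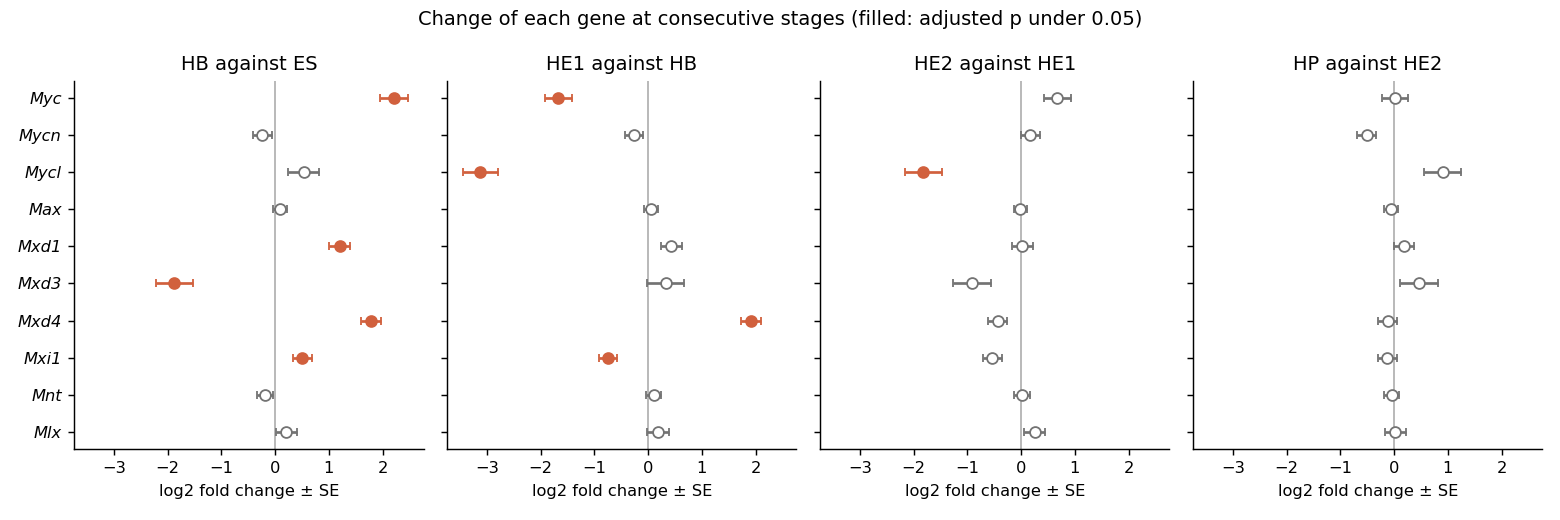
Log2 fold change (horizontal axis, later against earlier stage) of each of the 10 genes in the 4 comparisons of consecutive stages. Points are the edgeR estimates, bars ± 1 SE, and filled points passed an adjusted p under 0.05; 5 points are filled from ES to HB, 4 from HB to HE1, 1 from HE1 to HE2 and none from HE2 to HP.

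The wider network was covered by a list of 5 further genes, of which 4 were tested and Mycs, with 1 count in all libraries, was not. Mga, a very large MAX partner that belongs to a Polycomb complex, fell from 758 and 795 CPM in ES to 321 and 326 CPM in HB (log2 fold change -1.26, edgeR adjusted p = 0.000320), with no overlap between those stages. Mlxip, the MLX partner also called MondoA, rose from 57.8 and 59.1 CPM to 101 and 112 CPM in the same step (0.87, adjusted p = 0.00150), where Bmyc was also higher (0.70, adjusted p = 0.0479). Mlxipl, the glucose-sensing factor also called ChREBP, fell from 13.1 and 13.8 CPM in ES to 3.01 and 1.38 CPM in HB (-2.62, adjusted p = 0.00187) and to 0.0841 and 0.330 CPM in HE1 (adjusted p = 0.00271), where library 1 was under the floor of 3 counts (0.120 CPM). The pair of MLX partners thus moved in opposite directions from ES to HB.

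Among 12 cofactors of MYC, 2 rose and 3 fell from ES to HB, against 17.8% higher and 22.6% lower of all tested genes, which is near the background. From HB to HE1 none rose and 6 fell (3 without HE1 library 2), against 17.5% and 14.8% of all genes. Ruvbl2, an ATPase of chromatin remodelling complexes, fell from 191 and 220 CPM in HB to 88.2 and 85.9 CPM in HE1 (log2 fold change -1.24, edgeR adjusted p = 0.000627). Its partner Ruvbl1 fell in the same step (-0.71, adjusted p = 0.0195) and was the only one of the list that rose from HE1 to HP (0.74, adjusted p = 0.0200). It was also the 1 cofactor called from HE1 to HE2, and it passed in neither comparison without HE1 library 2. Among all genes 6.12% were higher from HE1 to HE2 and 11.0% from HE1 to HP. The median log2 differences of the 12 were 0.25 and 0.30 with all libraries, and 0.15 and 0.20 without HE1 library 2. Cdk9, the kinase of transcription elongation, rose by 0.51 from ES to HB (adjusted p = 0.0217), as did the acetyltransferase Kat5 (0.54, adjusted p = 0.0162).

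Of 14 genes of the SIN3 corepressor, which the MXD proteins and MNT recruit, 1 rose and 2 fell from ES to HB (1 and 3 without HE1 library 2), against 17.8% higher and 22.6% lower of all genes. From HB to HE1 1 rose and 4 fell, also without HE1 library 2, against 17.5% and 14.8% of all genes. Its scaffolds moved in opposite directions, since Sin3b rose from 148 and 151 CPM in HB to 297 and 242 CPM in HE1 (log2 fold change 0.85, edgeR adjusted p = 0.00327) while Sin3a fell from 168 and 185 CPM to 114 and 94.4 CPM (-0.76, adjusted p = 0.00647). The subunit Sap30 fell by 1.08 in that step (adjusted p = 0.00112). Ing2, a reader of methylated histone H3, rose by 0.63 from ES to HB and fell by 0.71 to HE1 (adjusted p = 0.0126 and 0.0106). None of the 14 was called from HE1 to HE2, from HE2 to HP or from HE1 to HP, against 13.2%, 0% and 24.9% of all genes.

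The stability of MYC proteins is set by kinases and ubiquitin enzymes, and of 11 such genes 1 rose and 3 fell from ES to HB, close to the 17.8% higher and 22.6% lower of all genes. Usp28, a deubiquitinase that stabilizes MYC, fell from 237 and 229 CPM in ES to 55.5 and 49.5 CPM in HB (log2 fold change -2.15, edgeR adjusted p = 6.51e-06). Pim1, a kinase that acts on MYC, fell by 1.89 (adjusted p = 0.000468), the ubiquitin ligase Huwe1 fell by 0.74 (adjusted p = 0.0132), and Gsk3b, whose phosphorylation marks MYC for destruction, rose by 0.80 (adjusted p = 0.00297). From HB to HE1 1 rose and 3 fell, against 17.5% and 14.8% of all genes, with a median log2 difference of -0.24. The lower calls were lost without HE1 library 2, while the median was then -0.27. Aurka, a kinase that stabilizes MYCN, rose by 0.84 from HE1 to HE2 (adjusted p = 0.0233) and Pim1 by 0.85 from HE1 to HP (adjusted p = 0.0490). Neither call held without HE1 library 2. Of the list 1 was higher from HE1 to HE2 and 3 from HE1 to HP, against 6.12% and 11.0% of all genes. The median log2 differences of the list were 0.19 and 0.06 with all libraries, and 0.21 and 0.28 without HE1 library 2.

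All 57 MYC target genes of the list passed the filter, and they are described by their counts. From ES to HB, when Myc rose, 2 were higher and 15 lower, against 17.8% and 22.6% of all tested genes. The lower share was thus near the background and the higher share under it. The median log2 difference was -0.18 (0 over all tested genes). From HB to HE1, when Myc and Mycl fell and Mxd4 rose, none was higher and 36 were lower (17.5% and 14.8% of all genes), with a median of -0.64 (0.04 over all genes), and 21 were lower without HE1 library 2 and 13 without HB library 2. Over all genes 3355 were lower in that comparison with all libraries, 2414 without HE1 library 2 and 1569 without HB library 2. From HE1 to HE2, 13 were higher and none lower, against 6.12% and 7.12% of all genes (median 0.53, against -0.08 over all genes). From HE2 to HP none was called (median 0.0047, against 0.012 over all genes), and between HE1 and HP 24 were higher and none lower, against 11.0% and 13.9% (median 0.48, against -0.02).

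The counts after HE1 rested on single libraries. Without HE1 library 2 they were 1 from HE1 to HE2 and 8 from HE1 to HP, without HE2 library 2 the former was 0 and without HE2 library 1, the library with more endothelial markers, it was 43, while the medians without HE1 library 2 were 0.48 and 0.49. Without HP library 1 the latter was 4. The number of all genes called as higher moved in the same fits. From HE1 to HE2 it was 1384 with all libraries, 372 without HE1 library 2, 333 without HE2 library 2 and 2263 without HE2 library 1, and from HE1 to HP it was 2495 with all libraries, 1262 without HE1 library 2 and 949 without HP library 1. Named by size, Dusp2, a phosphatase of MAP kinases, rose from 0.798 and 1.00 CPM in ES to 34.6 and 33.7 CPM in HB (log2 fold change 5.26, edgeR adjusted p = 9.97e-07), unlike most of the list. Hk2, which traps glucose in the cell, fell from 359 and 431 CPM in HB to 72.2 and 103 CPM in HE1 (-2.17, adjusted p = 6.14e-05), and the nucleoside transporter Slc29a2 fell by 1.63 (adjusted p = 0.000449). Sord, of the sorbitol pathway, fell by 1.57 from ES to HB (adjusted p = 0.000345) and rose by 1.33 from HE1 to HP (adjusted p = 0.00227), where the kinase Map3k6 rose by 1.53 (adjusted p = 0.00714).

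**Figure D5:**
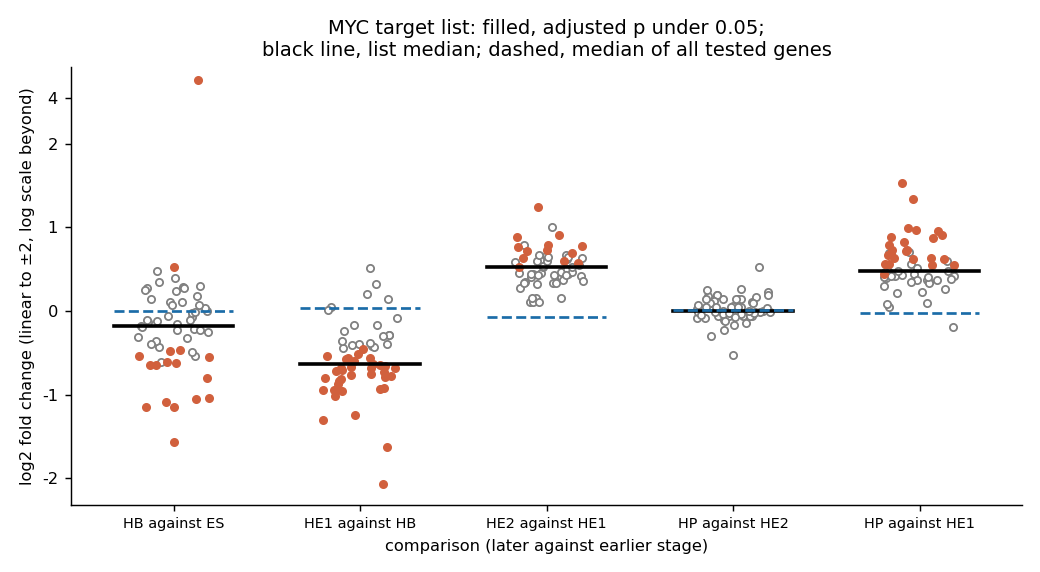
Log2 fold change (vertical axis, linear between -2 and 2 and logarithmic beyond) of the 57 MYC target genes in 5 comparisons (horizontal axis). Each point is a gene, filled where the adjusted p was under 0.05; the black line is the median of the list and the dashed line that of all tested genes, and the list lies below the dashed line from HB to HE1 and above it from HE1 to HE2 and to HP.

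Proliferation is a process that MYC drives. Of 10 genes of the cell cycle, 1 rose and none fell from ES to HB (17.8% and 22.6% of all genes), none rose and 6 fell from HB to HE1 (17.5% and 14.8% of all genes), and 8 rose and none fell both from HE1 to HE2 (6.12% and 7.12%) and from HE1 to HP (11.0% and 13.9%). Without HE1 library 2 the counts were 1 higher and 1 lower from ES to HB, 3 lower from HB to HE1, none from HE1 to HE2 and 1 higher from HE1 to HP. The median log2 differences of the list from HE1 were then 0.54 to HE2 and 0.58 to HP, against 0.75 and 0.78 with all libraries, and fewer of all genes were called in that fit too (372 and 1262 higher). Bub1, a mitotic checkpoint kinase, fell from 196 and 215 CPM in HB to 85.9 and 63.6 CPM in HE1 (log2 fold change -1.46, edgeR adjusted p = 0.000269). Ccnb1, the mitotic cyclin, fell by 0.92 in that step (adjusted p = 0.00624). Mki67, the proliferation antigen Ki-67, was at 570 and 327 CPM in HE1 and at 945 and 974 CPM in HP, a rise of 1.10 (adjusted p = 0.0117), and Aurkb, a kinase of chromosome segregation, rose by 0.95 from HE1 to HE2 (adjusted p = 0.0245). Mcm6, a subunit of the replicative helicase, fell by 0.94 from HB to HE1 (adjusted p = 0.0105) and rose by 0.95 from HE1 to HP (adjusted p = 0.0132). Within HE1, the level of all 10 was lower in library 2.

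The profile over the 10 libraries was compared with that of every other tested gene by Pearson's r of log2 CPM, as a description over libraries that share stages and depth. For Myc the nearest was Nme7, a gene of the nucleoside diphosphate kinase family (r = 0.9823), then the growth factor Fgf10 (r = 0.9797) and Cpne1 (r = 0.9762). Fgf10 had a wider range, from 6.30 and 6.34 CPM in ES to 196 and 228 CPM in HB and back to 19.2 and 13.9 CPM in HE1. For Mycn the nearest were Msto1 (r = 0.952), Mir7654 (r = 0.931) and Gm7172 (r = 0.918). Gm7172 stayed under 1 CPM in every library. For Mycl they were Aspg (r = 0.993), Phlda2, an imprinted gene (r = 0.990), and the potassium channel gene Kcnt2 (r = 0.990), which like Mycl were low from HE1 on and, within HE1, higher in library 2. Phlda2 was at 38.4 and 49.5 CPM in HB and at 0.883 and 4.06 CPM in HE1.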

How the data were processed

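Nuclear RNA was sequenced with a stranded, rRNA-depleted protocol for 5 stages with 2 libraries each, grouped by the labels. Reads were cleaned by the authors with RiboDetector and Trimmomatic and mapped with HISAT2 (v2.2.1) on mm10. The authors deposited raw counts per gene from featureCounts (v2.0.1 in the file headers), with the exons of Ensembl release 102, reverse-stranded, a fragment being counted on each gene it overlapped. The authors also deposited a matrix of stage means on the CPM scale, used here as a score per stage only for 1 alternative of the ratios. No normalization had been applied to the deposited counts.

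Counts were filtered with filterByExpr, which kept 22596 genes, scaled by TMM (factors from 0.955 to 1.13) and tested in R (v4.3.3) by the quasi-likelihood F test of edgeR (v4.0.16) on stage. The fit covered all 10 libraries, which left 5 residual degrees of freedom, and p-values were adjusted by the Benjamini-Hochberg method across the 22596 genes. A gene was called at an adjusted p under 0.05. Fold changes and SE come from this fit, the SE as the absolute log2 fold change over the root of F. limma-voom (limma v3.58.1), DESeq2 (v1.42.0), scaling by total counts, dropping the filter, fits of the 4 libraries compared, a replicate block and leaving out each library were alternatives. Symbols were found for 99.4% of the gene IDs, and promoters came from RefSeq. The fit was tested on simulated data. No library pair was identical.

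The members and the gene lists were chosen with earlier results of these data known, and the lists of targets, cofactors, corepressor, turnover and proliferation genes were written from general knowledge. All 10 members are named, and of each list at most 3 genes per direction with the largest change among those called. A cofactor gene that met this rule is not reported here.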

Additional observations from a re-analysis of the deposited data

How the results depend on the processing

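Each of the 60 log2 fold changes of the members was computed under 16 alternatives. Of the 960 values, 886 kept direction and side of the threshold, 25 lost a call, 21 gained it and 28 changed sign. Of 20 called changes 14 kept their call throughout, and the other 6 were Mxi1 in HB against ES, HE1 against HB and HP against HE1, Mycl in HE2 against HE1, Mxd4 in HP against HE1 and Mlx in HP against ES. None of the 13 changes whose sign turned was called. With total counts in place of TMM, the log2 differences were -0.0623 for Mxd1 and -0.0712 for Mnt (HE2 against HE1), and 0.0074 for Max and 0.0135 for Mnt (HP against HE2). For Max in HE2 against HE1 they were 0.0041 without a filter and 0.0016 with only the 4 libraries compared.

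With each library left out in turn, where a lone library was assumed to vary like the other groups, the ranges that crossed 0 were, for HE1 against HB, -0.0319 to 0.0904 (Max) and -0.0425 to 0.2369 (Mnt). For HE2 against HE1 they were -0.0507 to 0.3597 (Mycn), -0.0498 to 0.0225 (Max), -0.1429 to 0.1747 (Mxd1) and -0.118 to 0.1613 (Mnt). For HP against HE2 they were -0.321 to 0.4744 (Myc), -0.3566 to 0.1727 (Mxd4), -0.1295 to 0.0337 (Mnt) and -0.1972 to 0.242 (Mlx), for HP against HE1 -0.1633 to 0.116 (Mnt) and for HP against ES -0.0001 to 0.131 (Max).

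In HE2 against HE1, where 1 member was called, the count was 2 with DESeq2, with total counts and without a filter, 0 with only 4 libraries, and 0 to 3 with each library left out. In HP against HE1, where 2 were called, it was 4 with DESeq2 and without a filter, 1 with only 4 libraries, and 0 to 3 with each library left out. Myc in HP against HE1 passed with DESeq2 (adjusted p = 0.0394), total counts (0.0428), no filter (0.00201), only 4 libraries (0.0284) and in 3 of the 10 fits that left out a library. Among the 57 target genes, an analysis chosen after seeing the data, the count higher in HE2 than in HE1, 13, was 28 with DESeq2, 29 without a filter, 1 with only 4 libraries and 0 to 43 with each library left out. The count lower in HB than in ES, 15, was 23 with only 4 libraries and 7 to 17 with each left out. Those of HE1 against HB (36 lower) and HP against HE1 (24 higher) ranged from 13 to 37 and from 4 to 32. Over all genes, HE2 against HE1 gave 2992 calls in the reported fit, 4708 with DESeq2, 6061 without a filter and 1079 with only 4 libraries.

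Without division by exon length, the share of Mycn among the paralogues was 75.5% in ES, 44.6% in HB (Myc 44.7%), 70.9% in HE1, 65.2% in HE2 and 55.4% in HP, and the ratio of repressors to Max was 2.14 at the ES stage, 2.35 at HB, 3.15 at HE1, 2.73 at HE2 and 2.75 at HP. The cause of these shifts is that division itself.

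The libraries of a stage carry numbers that recur at each stage, and the labels do not say whether these pair them. Across genes, the difference between the libraries of 1 stage correlated with that of another by r from -0.316 to 0.213. Among HB, HE1, HE2 and HP, r was positive for HB with HE2 (0.213) and HE1 with HP (0.133) and negative for the other pairs. These values cannot decide whether libraries were paired under other numbers, and the block used the numbers as labelled. A replicate block took away the calls of Mxi1 in HB against ES (adjusted p = 0.0578) and Mxd4 in HP against HE1 (0.0572), leaving 1 member in the latter comparison and 5 target genes higher in HE2 than in HE1, and changed no other call of a member. With 2 libraries per stage all tests had limited precision, and Mycl in HE2, with 36 and 35 counts, rested on the fewest reads.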
